A study of Mus musculus with 11 samples.

Results

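GFP-positive and GFP-negative cells sorted from the dissected adrenal cortex of Nestin-GFP mice were compared by RNA sequencing over all genes. The comparison uses 6 of the 11 libraries of the series, 3 from each gate, taken by their titles. The other 5 are from the adrenal medulla and enter here through the shared estimate of spread and a few values given for comparison. All mice were males of the strain labelled Nes-GFP, in which green fluorescent protein (GFP) marks cells that use regulatory sequence of Nestin. Both gates carry the transgene, and no wild-type animals are part of the comparison. Tissue of 6 mice was pooled in 3 groups of 2 mice, digested and sorted, with 180 to 300 cells in a tube and 17 PCR cycles before sequencing. In each gate libraries 1 and 2 came from mice of about 3.5 months and library 3 from mice of about 2.5 months, which makes age balanced over the gates. The GFP-positive gate holds every live cell of the cortical tissue above the fluorescence gate, and the GFP-negative gate the remaining live cells, so that each is a mixture. A gene can be lower in one gate because fewer cells of a type were sorted there or because each cell held less of its RNA, and these cannot be told apart. Labels do not tie a library to a pool. The p-values therefore describe how far libraries differ, and that spread may in part be technical. No molecular identifiers were used, and counting intervals cover counting error only.

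The adrenal cortex makes steroids in concentric zones. Cells of the zona glomerulosa, under the capsule, make aldosterone in answer to angiotensin and potassium, and cells of the zona fasciculata beneath them make corticosterone in answer to the pituitary hormone ACTH. ACTH acts through its receptor Mc2r, which needs the accessory protein Mrap, and raises cyclic AMP, cholesterol uptake and cholesterol transport into mitochondria. Nestin, an intermediate filament protein of dividing progenitors, is also made by glia along nerves and by pericytes around vessels. Schwann cell precursors are nerve-associated glia of the embryo that give rise to several cell types, chromaffin cells of the medulla among them, and the series asks by its title whether they also give rise to steroid cells. The cortex further holds many resident macrophages and a dense network of sinusoids.

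Total counts lay between 22221659 and 26274085 in the 6 libraries. Counts of mitochondrial genes made up 10.6% to 16.7% of the total in GFP-positive and 7.03% to 7.30% in GFP-negative libraries, and the 20 most abundant genes 22.3% to 27.9% against 15.0% to 15.5%. Levels are CPM, counts scaled by library size with TMM. They are given for libraries 1, 2 and 3 in order, the GFP-positive libraries before the GFP-negative ones. A change is the fitted log2 difference, GFP-positive minus GFP-negative, with its standard error (SE). A gene is said to rise, fall or be called when edgeR's quasi-likelihood test gave a Benjamini-Hochberg adjusted p below 0.05 over all 20893 genes tested. By that rule 14.7% of all genes were called, 7.14% higher and 7.59% lower in GFP-positive cells, with a median change of 0.03 over all genes. The genes tested had passed a filter on counts over all 11 libraries, the medullary ones among them. Filtered and fitted alone, the cortical libraries gave 3909 calls among 17231 genes, which is a larger share. With total counts as the only scaling, 1244 genes were higher and 2032 lower, in place of 1492 and 1586. Without GFP-negative library 3 the calls numbered 1950, against 3078 with all libraries. The groups did not overlap in 38.2% of all genes and in 3050 of the 3078 called ones. For a called gene, groups that do not overlap thus add little to the call. Tested with glmTreat against an absolute log2 change of 1, 44 of the 84 counts of rises and falls over the gene lists moved by over 1.5 times. Of the 3078 called genes, 3070 kept their direction in the libraries of either age taken alone. The calls were made from these same libraries, so that this is no separate check of them.

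Nes itself (ENSMUSG00000004891, chr3:87971078-87980451, mm10) stood at 50.9, 35.3 and 47.4 CPM against 4.59, 7.16 and 7.44 CPM (log2 2.80, SE 0.39, edgeR adjusted p = 0.00136). The lowest GFP-positive library was above the highest GFP-negative one, and the transcript was present in both gates. The labelled tissue was also checked against its defining genes. Nr5a1, a nuclear receptor that sets the identity of steroid cells, stood at 309, 381 and 226 CPM against 252, 361 and 243 CPM, and the ranges of the gates overlapped. Hsd3b1, which makes progesterone from pregnenolone, was among the 10 most abundant transcripts of each gate, at 25687, 22704 and 23614 against 20100.1, 15812 and 15567 CPM, and did not pass the test (edgeR adjusted p = 0.19). Cyp11a1, the side-chain cleavage enzyme that begins steroid synthesis, stood at 10782, 8601 and 6806 CPM against 5164, 4806 and 4384 CPM and did not pass it either (edgeR adjusted p = 0.063; voom gave 0.0335), although its groups did not overlap. Both gates thus held the transcripts of steroid cells at high level. Malat1, a nuclear long noncoding RNA, rose, with 15153, 20584 and 19054 CPM against 6073, 7572 and 5996 CPM (log2 1.48, SE 0.20, edgeR adjusted p = 0.00108), alongside the larger mitochondrial share, whose part in the results below was not tested.

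Abcb1b had an edgeR adjusted p among the smallest of all genes, equal to that of Cxcl16, and a smaller unadjusted p than Cxcl16. Abcb1b encodes a P-glycoprotein, a membrane pump that exports steroids and drugs, and is annotated at chr5:8798147-8866315 (ENSMUSG00000028970). The transcript stood at 2743, 2830.5 and 3250.0 CPM against 32.4, 43.2 and 41.3 CPM (log2 6.24, SE 0.30, edgeR adjusted p = 1.26e-05). All GFP-positive libraries lay close together and each was more than an order of magnitude above each GFP-negative library. In the medulla the gate changed it by 6.68 on the log2 scale, and the test of the difference between the tissues gave an edgeR adjusted p of 0.599. Only GFP-positive libraries of the medulla came from younger mice, so that age and gate are partly confounded there. Among the 17 genes tested within 500000 bases on either side, 3 rose and the others did not pass the test. The other 2 that rose were 7330423F06Rik, a transcript annotated inside Abcb1b on the same strand, whose reads cannot be told apart from those of Abcb1b, and the close paralog Abcb1a, chosen after its values were seen, at a mean of 69.7 ± 14.4 CPM (SD, n = 3) against 3.63 ± 1.70 CPM (SD, n = 3, edgeR adjusted p = 0.000313). Reads in stretches that Abcb1a and Abcb1b share may have been assigned to either or to none. Abcb4, a phospholipid pump gene next to them, was not called (edgeR adjusted p = 0.242). The promoter window of Abcb1b, the 250 bases before the start of its transcript in RefSeq (GRCm38.p6, chr5:8797897-8798146, plus strand), is shown because its adjusted p is among the smallest. Capitals mark the CCAAT box, the letters CCAAT on either strand, which occurs in this window on both strands.
Abcb1b: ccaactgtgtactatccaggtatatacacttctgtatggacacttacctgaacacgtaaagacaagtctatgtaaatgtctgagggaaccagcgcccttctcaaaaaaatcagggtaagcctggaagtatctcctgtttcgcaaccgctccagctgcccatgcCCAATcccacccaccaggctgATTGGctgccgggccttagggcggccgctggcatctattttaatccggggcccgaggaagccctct

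The named rule took the 12 genes of largest change in each direction among called genes with a mean of at least 100 CPM in the higher gate. Srd5a2, a steroid 5-alpha-reductase, stood at 1465, 1411 and 1826 CPM against 5.79, 15.1 and 17.5 CPM (log2 6.94, SE 0.90, edgeR adjusted p = 0.000947). Mgst2, a microsomal enzyme that joins glutathione to lipids, stood at 115, 115 and 130.4 CPM against 0.411, 0.294 and 0.0394 CPM (log2 8.88, SE 0.53, edgeR adjusted p = 3.8e-05). Sbsn, which encodes the secreted protein suprabasin, stood at 267, 226 and 221 CPM against 0.485, 2.06 and 3.11 CPM (log2 6.98, SE 0.64, edgeR adjusted p = 0.000173). None of the 3 genes overlapped between the gates. Mapk13, a p38 stress kinase gene, rose by 5.57 on the log2 scale, from 4.14, 1.62 and 1.3 CPM in GFP-negative to 107, 114 and 116 CPM in GFP-positive libraries. Hspb8, a small heat shock protein gene, stood at 143, 179 and 148 CPM against 3.21, 12 and 4.69 CPM (log2 4.56, SE 0.47, edgeR adjusted p = 0.000313). Abhd2, a lipid hydrolase gene that answers to progesterone, stood at 432, 707 and 454 CPM against 47.6, 51.4 and 41.3 CPM (log2 3.50, SE 0.35, edgeR adjusted p = 0.000279). Aif1l, an actin-binding protein gene, stood at 157, 104 and 174 CPM against 3.62, 7.42 and 0.788 CPM (log2 5.19, SE 0.68, edgeR adjusted p = 0.000946). The lowest GFP-positive library was above the highest GFP-negative one for each of these genes. Apod, a lipocalin of glia and fibroblasts, had the largest fitted rise of the 12 and differed widely among the GFP-positive libraries, at 40.5, 339 and 73.6 CPM against at most 0.367 CPM, and it was not called with voom (adjusted p = 0.154).

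**Figure D1:**
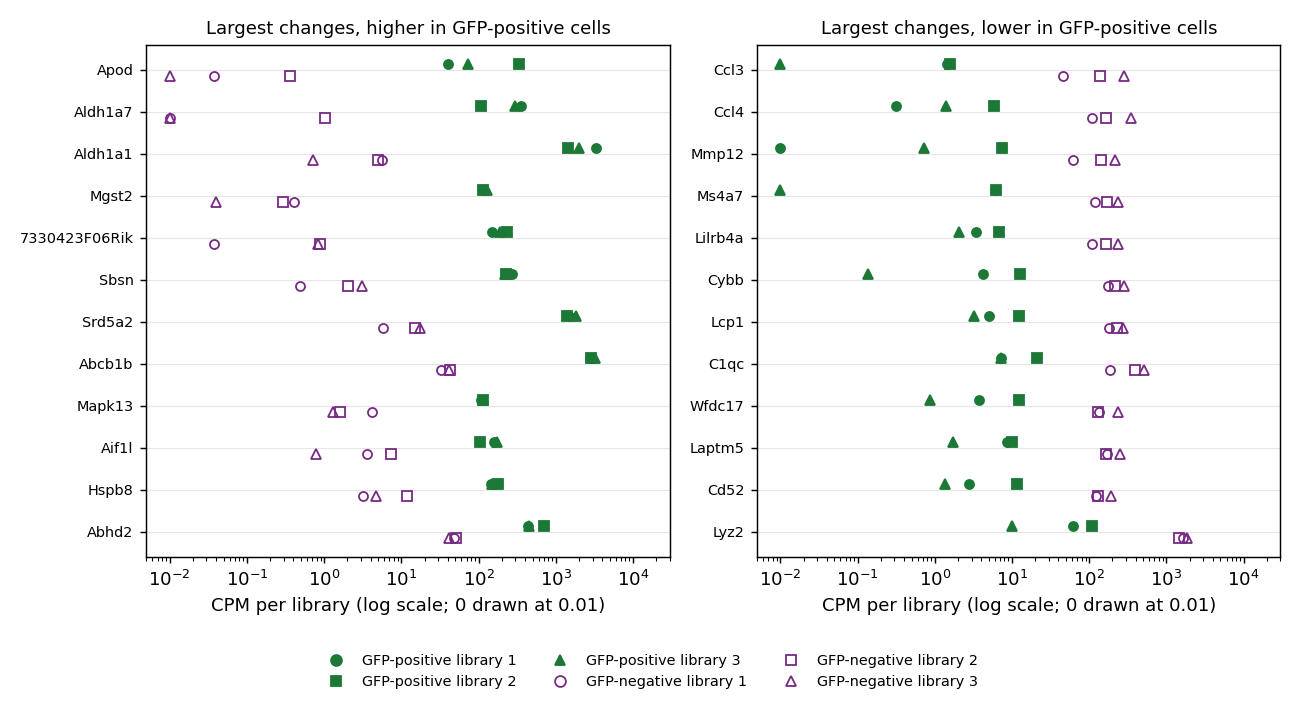
CPM of each library (log axis, 0 drawn at 0.01) for the 12 abundant genes of largest rise (left) and the 12 of largest fall (right) in cortical GFP-positive cells, with filled symbols for GFP-positive and open symbols for GFP-negative libraries and a shape for each library number. No gene overlaps between the gates, and Abcb1b sits between 2743 and 3250 CPM in GFP-positive and between 32.4 and 43.2 CPM in GFP-negative libraries.

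All 12 abundant genes of largest fall are expressed by myeloid cells as background knowledge has it. Lyz2, which encodes lysozyme, stood at 60.8, 110.3 and 9.91 CPM against 1625, 1470.3 and 1872 CPM (log2 -4.78, SE 0.78, edgeR adjusted p = 0.00294). Cybb, the catalytic subunit of the phagocyte oxidase, stood at 4.19, 12.9 and 0.135 CPM against 176, 216 and 285 CPM (log2 -5.29, SE 0.92, edgeR adjusted p = 0.00399). Lilrb4a, an inhibitory receptor gene of myeloid cells, stood at 3.38, 6.7 and 2.07 CPM against 108, 164 and 238 CPM (log2 -5.38, SE 0.54, edgeR adjusted p = 0.000306). In these 3 genes GFP-positive library 3 was the lowest and the gates were far apart. Lcp1, the leukocyte form of plastin, fell from 182, 229 and 274 to 4.99, 12.3 and 3.24 CPM, and C1qc, a subunit of the first complement component, from 187, 391 and 519.5 to 7.26, 21.3 and 7.3 CPM. Mmp12, the macrophage elastase gene, stood at 0, 7.43 and 0.721 CPM against 61, 142 and 214 CPM. Its call was lost with voom (adjusted p = 0.0729) and with the libraries of about 3.5 months alone (adjusted p = 0.107). Ccl4, a chemokine gene, stood at 0.312, 5.8 and 1.4 CPM against 109, 165 and 348 CPM, and its call was lost with those libraries alone (adjusted p = 0.0916).

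Among genes of the zona fasciculata rises outnumbered falls, and among genes of the zona glomerulosa every call was a fall. Of 21 fasciculata genes tested 8 rose and 2 fell, with a median change of 0.87. Of 19 glomerulosa genes 11 fell and the other 8 did not pass the test, with a median of -1.34. Cyp11b1, which makes corticosterone, stood at 5862, 4950.2 and 5668 CPM against 1313, 1384 and 1519 CPM (log2 1.97, SE 0.18, edgeR adjusted p = 0.000163). Its neighbour Cyp11b2, which makes aldosterone, stood at 103, 62.5 and 65.7 CPM against 1395, 958 and 1197 CPM (log2 -3.94, SE 0.52, edgeR adjusted p = 0.000967). These 2 genes are close in sequence, and reads that match both could have been assigned to either. In the medulla, where age and gate are partly confounded, the gate changed Cyp11b2 by -8.44 on the log2 scale. The difference between the tissues was called (edgeR adjusted p = 0.0261). That test was planned for the 24 abundant genes of largest change, of which 0 were called, and its reading for Cyp11b2 lies outside that plan. Agtr1b, an angiotensin receptor gene, stood at 7.62, 17.7 and 10.4 CPM against 284, 182 and 176 CPM (log2 -4.16, SE 0.51, edgeR adjusted p = 0.000727). Rgs4, which shortens signals of G proteins, stood at 35.1, 67.7 and 47.7 CPM against 318, 419 and 285 CPM (log2 -2.76, SE 0.30, edgeR adjusted p = 0.000397). Tspan12, a tetraspanin gene, stood at 183, 145 and 135 CPM against 514, 465 and 485 CPM (log2 -1.66, SE 0.18, edgeR adjusted p = 0.000438). For all 3 genes the highest GFP-positive library was below the lowest GFP-negative one. Fdx1, which passes electrons to the mitochondrial steroid enzymes, stood at 5833, 5417 and 3498 CPM against 1533, 1600.3 and 1543 CPM (log2 1.66, SE 0.29, edgeR adjusted p = 0.0039). Star stood at 17986, 22975 and 17727 CPM against 5693, 6892 and 5752 CPM (log2 1.68, SE 0.30, edgeR adjusted p = 0.005). Nr0b1, which represses steroid genes and is also called Dax1, stood at 4.14, 4.94 and 1.26 CPM against 21.7, 29.7 and 14.4 CPM (log2 -2.67, SE 0.54, edgeR adjusted p = 0.00895). The 2 fasciculata genes that fell were Nr0b1 and Mc2r, and 1 of them was called with the libraries of about 3.5 months alone.

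The X zone, a transient inner zone of the mouse cortex, has 4 genes in its list, of which 3 were tested and did not pass. One of the 3 had an unadjusted p below 0.05, and DESeq2 and voom called 0 of them. Akr1c18, which breaks down progesterone, stood at 0.668, 0.472 and 1.53 CPM against 0.859, 0.441 and 0.827 CPM. Thrb, a thyroid hormone receptor gene, stood at 10.2, 16.7 and 14.4 CPM against 3.62, 10.2 and 5.51 CPM (edgeR adjusted p = 0.178), and Pik3c2g had at most 0.225 CPM in any library. The values of Akr1c18 overlapped between the gates and those of Thrb did not.

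The ACTH pathway changed in more than 1 direction. Of 27 genes tested 6 rose and 3 fell, with a median of -0.03. At about 3.5 months alone 1 fell, and with the cortical libraries alone 5 fell. Mc2r, the ACTH receptor gene, stood at 208, 267 and 201 CPM against 529, 501 and 446 CPM (log2 -1.12, SE 0.23, edgeR adjusted p = 0.00868). Its accessory protein gene Mrap stood at 479, 438 and 262 CPM against 127, 97.6 and 66.4 CPM (log2 2.02, SE 0.38, edgeR adjusted p = 0.00604). The receptor was thus lower and its accessory protein higher in every GFP-positive library, and the call of Mc2r was lost with the libraries of about 3.5 months alone (adjusted p = 0.0704). Downstream, the catalytic subunit gene of protein kinase A, Prkaca, stood at 74.1, 89.3 and 79.9 CPM against 34.3, 37.7 and 32.5 CPM (log2 1.22, SE 0.17, edgeR adjusted p = 0.00139). The regulatory subunit gene Prkar2b stood at 402, 494 and 295 CPM against 139, 129.5 and 120.1 CPM (log2 1.62, SE 0.32, edgeR adjusted p = 0.00796). Gnai1, whose G protein inhibits adenylyl cyclase, stood at 17.5, 20.2 and 9.73 CPM against 1.12, 1.73 and 0.433 CPM (log2 3.85, SE 0.63, edgeR adjusted p = 0.00305). Pde2a, which breaks down cyclic nucleotides, stood at 1.65, 0.644 and 0.766 CPM against 9.3, 6.65 and 7.21 CPM (log2 -2.91, SE 0.51, edgeR adjusted p = 0.00403). Pde4b, which breaks down cyclic AMP, stood at 3.92, 3.48 and 0.721 CPM against 9.82, 8.3 and 14.6 CPM (log2 -2.01, SE 0.50, edgeR adjusted p = 0.0245). The call of Pde4b was lost without GFP-negative library 3 (adjusted p = 0.0827) and with the libraries of about 3.5 months alone (adjusted p = 0.0552).

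**Figure D2:**
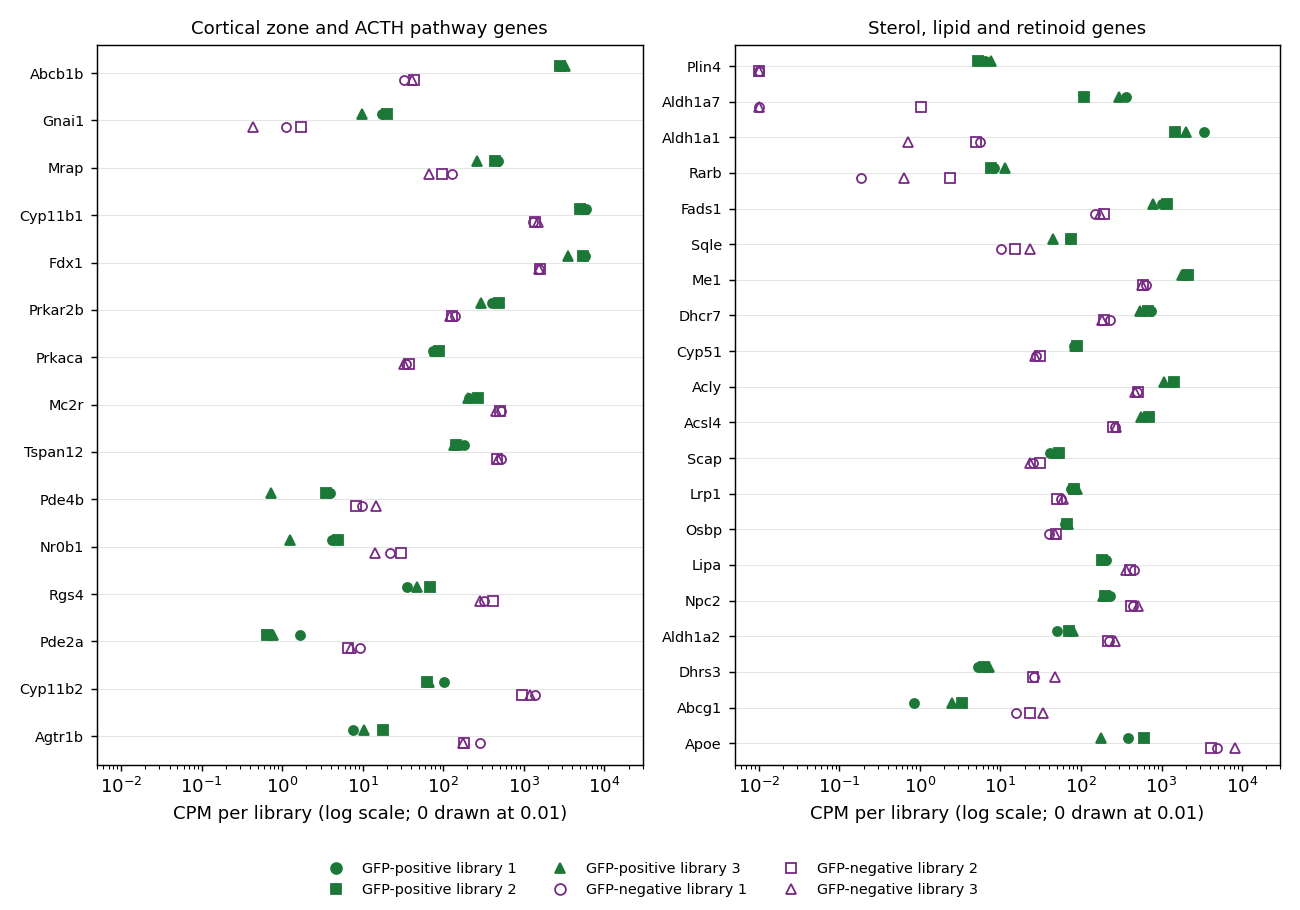
CPM of each library (log axis, 0 drawn at 0.01) for genes of the zone and ACTH lists (left) and of the sterol, cholesterol, fatty acid and retinoid lists (right), with filled symbols for GFP-positive and open symbols for GFP-negative libraries. Genes are ordered by the change; Cyp11b1 and Mrap lie higher and Mc2r, Cyp11b2 and Agtr1b lower in every GFP-positive library.

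Every called gene of sterol synthesis and of fatty acid synthesis was higher in GFP-positive cells by edgeR with TMM. Of 23 sterol synthesis genes 11 rose and the other 12 did not pass the test, with a median of 0.77. There were 7 calls without GFP-positive library 1, 6 without GFP-negative library 2, 4 with the libraries of about 3.5 months alone and 1 with glmTreat. Sqle, which epoxidises squalene, stood at 72.6, 75.3 and 44.5 CPM against 10.3, 15.2 and 23.3 CPM (log2 1.98, SE 0.37, edgeR adjusted p = 0.006). Scap, which escorts the sterol-sensing transcription factor SREBP, stood at 41.2, 53.3 and 50.1 CPM against 25.7, 31.4 and 23.5 CPM (log2 0.84, SE 0.16, edgeR adjusted p = 0.00586). Cyp51, the lanosterol demethylase, stood at 81.1, 89 and 84.4 CPM against 27.9, 30.7 and 26.6 CPM (log2 1.58, SE 0.19, edgeR adjusted p = 0.000577). Dhcr7, which makes cholesterol from its last precursor, stood at 742, 672 and 544 CPM against 227, 195 and 182 CPM (log2 1.70, SE 0.31, edgeR adjusted p = 0.00522). All 4 genes were higher in every GFP-positive library. The call of Scap was lost with the libraries of about 3.5 months alone (adjusted p = 0.0777).

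Promoter windows of these genes, 250 bases before each start in RefSeq (GRCm38.p6), were searched on both strands for 10 motifs. The motifs TCACNCCAC and its shorter form CACNCCAC stood for the sterol regulatory element, and AAGGTCA and CAAGGTC for sites of Nr5a1. TGACGTCA and its start TGACGT stood for the cyclic AMP response element, and GAGGAAGT for the myeloid factor PU.1. ACAAAG stood for SOX factors, CCAAT for the factor NF-Y and TGCTGA for MAF factors. The motifs of each of the first 3 pairs overlap. CCAAT occurred in 16 of the 18 sterol synthesis genes with a window, 6 of the 8 called ones among them, and in 37.5% of the 27025 genes of the table. Its share was thus no higher among the called sterol genes than among all 18. CACNCCAC occurred in 3 of the 18 sterol genes and in 6.05% of all genes, and AAGGTCA in 2 of 18 and in 4.70%. The remaining motifs occurred in at most 4 of the 18. In the other lists searched, CCAAT was found in 9 of 16 fatty acid synthesis genes, 9 of 13 fasciculata genes and 5 of 12 glomerulosa genes with a window. It was also found in 9 of 14 MHC class II genes, a list whose calls were all falls, in 5 of 22 macrophage regulators and in 9 of 27 phagocytic receptor genes. Among glial lists it was found in 8 of 14 Schwann cell precursor regulators and 5 of 13 early surface genes. The motifs were picked with these results in view, and a match is a description of the letters. The windows of the 4 called sterol genes of smallest adjusted p that had 1 window and this motif are shown so that the letters can be seen beside the values of these genes, with CCAAT on either strand in capitals. They are Cyp51 (chr5:4104698-4104947, minus strand), Msmo1 (chr8:64733579-64733828, minus strand), Sc5d (chr9:42264301-42264550, minus strand) and Idi1 (chr13:8885356-8885605, plus strand), each written 5′ to 3′ along its gene.
Cyp51: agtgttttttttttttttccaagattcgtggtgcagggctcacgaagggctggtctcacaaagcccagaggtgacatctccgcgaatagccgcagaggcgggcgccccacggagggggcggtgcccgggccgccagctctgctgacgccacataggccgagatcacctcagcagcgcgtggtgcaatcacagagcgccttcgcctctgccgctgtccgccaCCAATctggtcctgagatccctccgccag
Msmo1: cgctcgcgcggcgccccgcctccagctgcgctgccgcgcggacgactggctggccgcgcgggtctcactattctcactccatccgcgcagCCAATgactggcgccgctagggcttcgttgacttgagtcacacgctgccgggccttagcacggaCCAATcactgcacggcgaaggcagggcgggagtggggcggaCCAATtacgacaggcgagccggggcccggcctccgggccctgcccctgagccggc
Sc5d: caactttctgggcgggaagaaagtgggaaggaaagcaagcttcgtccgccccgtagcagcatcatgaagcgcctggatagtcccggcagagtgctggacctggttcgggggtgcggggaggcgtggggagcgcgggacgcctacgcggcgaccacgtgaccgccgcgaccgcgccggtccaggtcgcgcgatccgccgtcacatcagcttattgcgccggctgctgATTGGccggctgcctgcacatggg
Idi1: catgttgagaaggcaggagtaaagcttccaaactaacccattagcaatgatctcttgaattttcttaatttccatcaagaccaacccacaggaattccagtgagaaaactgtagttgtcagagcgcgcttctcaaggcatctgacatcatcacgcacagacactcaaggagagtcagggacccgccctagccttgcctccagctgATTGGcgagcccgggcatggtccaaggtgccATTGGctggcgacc

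The first CCAAT letters began 29 bases before the start in Cyp51, and in Msmo1 they occurred 3 times, at 160, 96 and 55 bases before it. Sc5d held them once and Idi1 in 2 places, in both genes on the opposite strand. Msmo1, which removes methyl groups from sterols, stood at 543, 517 and 553 CPM against 315, 236 and 270.1 CPM (log2 0.97, SE 0.20, edgeR adjusted p = 0.00903). Sc5d, a sterol desaturase gene, stood at 99.4, 97.5 and 83.4 CPM against 59.7, 47.4 and 57.4 CPM (log2 0.77, SE 0.19, edgeR adjusted p = 0.0253). Idi1, which isomerises the building block of isoprenoids, stood at 10.3, 7.22 and 10.9 CPM against 4.67, 4.52 and 5.04 CPM (log2 1.00, SE 0.26, edgeR adjusted p = 0.0287). Each was higher in every GFP-positive library.

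Of 21 genes of fatty acid and glyceride synthesis 10 rose and the other 11 did not pass the test, with a median of 0.90. DESeq2 and total counts alone each called 1 lower. Fads1, the delta-5 desaturase that completes arachidonic acid, had the smallest p-value of the list, at 1000.0, 1155 and 786 CPM against 147, 192 and 173 CPM (log2 2.52, SE 0.16, edgeR adjusted p = 3.8e-05). Acly, which makes cytosolic acetyl-CoA from citrate, stood at 1395, 1426 and 1087 CPM against 500.3, 509 and 472 CPM (log2 1.40, SE 0.16, edgeR adjusted p = 0.000546). Me1, the malic enzyme that supplies NADPH, stood at 2018, 2119 and 1814 CPM against 646, 586 and 568 CPM (log2 1.72, SE 0.25, edgeR adjusted p = 0.00173). Acsl4, which activates arachidonic acid, stood at 615, 697 and 549.7 CPM against 268, 253 and 273 CPM (log2 1.23, SE 0.16, edgeR adjusted p = 0.000919). None of these genes overlapped between the gates.

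Genes of cholesterol uptake, storage and export changed in both directions. Of 25 genes tested 6 rose and 8 fell. There were 3 rises without GFP-negative library 1, and 5 falls without GFP-positive library 1 or 3 or GFP-negative library 1 or 2 and 4 without GFP-negative library 3. With the libraries of about 3.5 months alone 2 rose and 5 fell. Plin4, which coats lipid droplets, stood at 6.46, 5.28 and 7.66 CPM against 0 counts in the GFP-negative libraries. Set against 3 counts in that group, it was at least 171-fold higher (edgeR adjusted p = 0.000647). Lipa, the lysosomal cholesterol ester hydrolase, stood at 206, 182 and 189 CPM against 454, 408 and 365 CPM (log2 -1.09, SE 0.12, edgeR adjusted p = 0.000478). Npc2, which carries cholesterol out of lysosomes, stood at 232, 198 and 189.6 CPM against 441, 421 and 514 CPM (log2 -1.15, SE 0.13, edgeR adjusted p = 0.000416). Apoe, a secreted carrier of cholesterol made by macrophages and steroid cells, stood at 388, 608 and 175 CPM against 4896, 4152 and 8127 CPM (log2 -3.87, SE 0.51, edgeR adjusted p = 0.00101). Abcg1, a cholesterol exporter of macrophages, stood at 0.846, 3.31 and 2.48 CPM against 15.7, 23 and 33.6 CPM (log2 -3.44, SE 0.51, edgeR adjusted p = 0.00176). The lowest Apoe level of the 6 libraries, in GFP-positive library 3, lay in the library with the lowest sum of macrophage regulators, a list that summed to 203, 273 and 143 CPM in GFP-positive and 1827, 2031 and 2804 CPM in GFP-negative libraries. The part of macrophage RNA in these falls was not tested.

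Retinoid genes changed by enzyme. Of 24 tested 6 rose and 2 fell, and voom called 3 higher. Without GFP-negative library 3 there were 3 rises and 1 fall, without GFP-positive library 1 there was 1 fall, and with the libraries of about 3.5 months alone 2 rose and 1 fell. Aldh1a1, which oxidises retinal to retinoic acid, stood at 3356, 1459.6 and 1989 CPM against 5.56, 5.03 and 0.709 CPM (log2 9.23, SE 0.83, edgeR adjusted p = 0.000163). Its paralog Aldh1a7 stood at 359, 108 and 293 CPM against 0, 1.03 and 0 CPM, and reads that match both genes could have been assigned to either. Aldh1a2, another enzyme that makes retinoic acid, moved the opposite way, at 50.8, 70.1 and 79 CPM against 225, 217 and 263 CPM (log2 -1.82, SE 0.42, edgeR adjusted p = 0.0165). The call of Aldh1a2 was lost without GFP-positive library 1 (adjusted p = 0.0512), without GFP-negative library 3 (adjusted p = 0.0528) and with the libraries of about 3.5 months alone (adjusted p = 0.0977). Dhrs3, which turns retinal back into retinol, stood at 5.21, 6.19 and 7.12 CPM against 26.3, 25.6 and 47.3 CPM (log2 -2.42, SE 0.32, edgeR adjusted p = 0.000977). Rarb, a retinoic acid receptor gene that is itself induced by retinoic acid, stood at 8.42, 7.69 and 11.4 CPM against 0.187, 2.39 and 0.63 CPM (log2 3.09, SE 0.72, edgeR adjusted p = 0.0172). With the libraries of about 3.5 months alone (adjusted p = 0.138) and without GFP-negative library 3 (adjusted p = 0.0696) Rarb was not called.

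Antioxidant enzymes leaned upwards, with 13 of 38 higher, 2 lower and a median of 0.30. With the libraries of about 3.5 months alone 8 rose, and 1 fell there and without any 1 library except GFP-positive library 1. Hmox1, which breaks down heme, stood at 430.2, 345 and 394 CPM against 118, 166 and 121 CPM (log2 1.53, SE 0.23, edgeR adjusted p = 0.00203). Gclm, a subunit of the first enzyme of glutathione synthesis, stood at 73.5, 83.2 and 62.6 CPM against 28.4, 34.7 and 28.6 CPM (log2 1.26, SE 0.18, edgeR adjusted p = 0.00171). Gstk1, a mitochondrial and peroxisomal glutathione transferase gene, stood at 127, 126 and 137 CPM against 58.9, 62.1 and 51.7 CPM (log2 1.17, SE 0.18, edgeR adjusted p = 0.00207). Selenop, a secreted selenium carrier, stood at 132, 134 and 148 CPM against 322, 341 and 461 CPM (log2 -1.44, SE 0.18, edgeR adjusted p = 0.000897). All 4 separated the gates. Among 71 nuclear-encoded subunits of the respiratory chain 9 rose and 1 fell, a called share of 14.1% that is near the 14.7% over all genes. The rises numbered 16 with DESeq2, 15 with voom and 17 with the cortical libraries alone, and the falls 5, 3 and 4. Total counts alone gave 5 falls. There were 4 rises without GFP-positive library 2, 3 without GFP-negative library 2 or 3, and 1 with the libraries of about 3.5 months alone. Uqcrq, a subunit of complex III, stood at 387, 381 and 347 CPM against 212, 189 and 168 CPM (log2 0.97, SE 0.12, edgeR adjusted p = 0.000881). The 1 that fell was Atp5a1, a subunit of the ATP synthase, at 1058, 868 and 983 CPM against 1318, 1167 and 1353 CPM (edgeR adjusted p = 0.0496), and its call was lost without any 1 library except GFP-positive library 1.

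**Figure D3:**
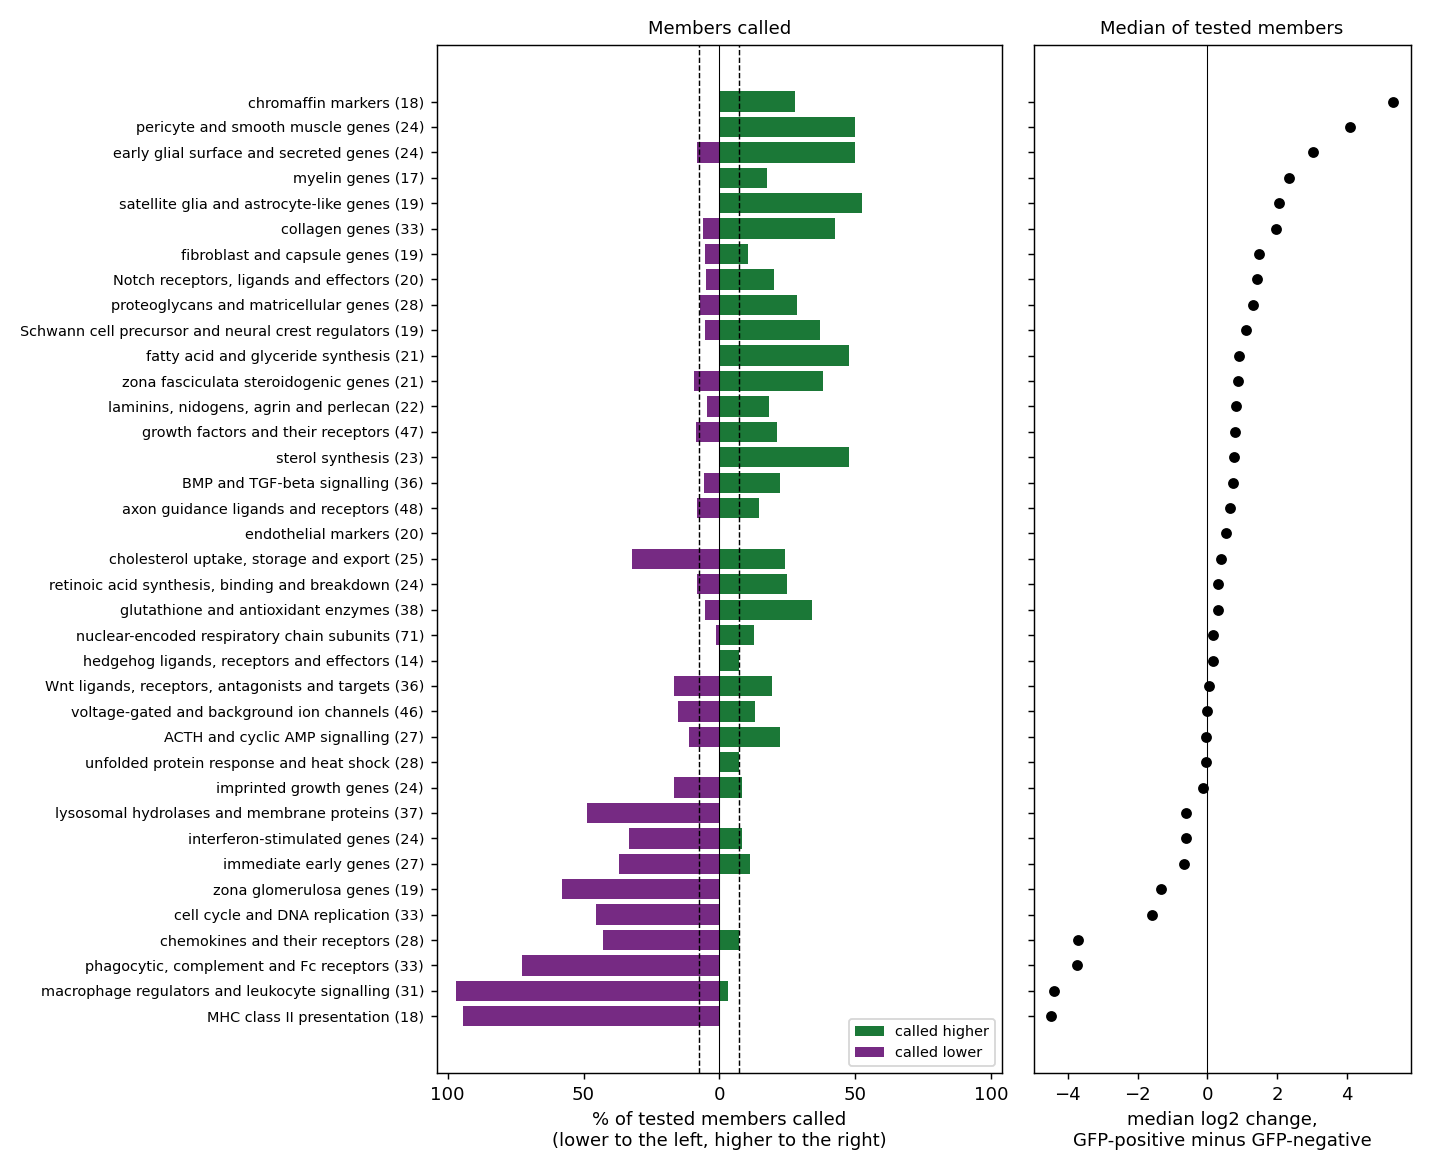
Share of the tested members called higher (green, to the right) and lower (purple, to the left) in cortical GFP-positive cells, and the median log2 change of the tested members, for the 37 lists with at least 10 tested members, whose number stands in brackets. Dashed lines mark the shares over all genes, 7.14% higher and 7.59% lower. Macrophage and MHC class II lists stand at the bottom. The chromaffin list, with a median of 5.32, stands at the top, followed by the mural, early glial surface, myelin and satellite glia lists. The chromaffin median rests on low counts, and the filter took counts of all 11 libraries, medullary ones among them. Of its 18 members 9 had 0 counts in the GFP-negative libraries, and 2 did not overlap between the gates. Its sum was 187 CPM in GFP-positive library 1 and 23.9 and 21.6 CPM in libraries 2 and 3. The Schwann cell precursor regulators stand lower, with a median of 1.11.

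Each of the 4 lists of glial genes had more members higher than lower in the GFP-positive gate. Of 19 Schwann cell precursor and neural crest regulators 7 rose and 1 fell, of 24 early glial surface and secreted genes 12 rose and 2 fell, of 19 satellite glia genes 10 rose, and of 17 myelin genes 3 rose. The medians were 1.11, 3.03, 2.05 and 2.33. In the same order, the summed lists had means of 218, 476, 694 and 692 CPM in GFP-positive libraries. In GFP-negative libraries these means were 182, 256, 188 and 460 CPM. The sums of the regulators overlapped between the gates. Of the regulators 3 rose without GFP-positive library 2 or GFP-negative library 1, and 4 rose without GFP-negative library 2 or 3 or with the libraries of about 3.5 months alone, and 2 fell without GFP-positive library 3. Voom called 4 of the regulators and 6 of the surface genes higher. DESeq2, voom and the cortical libraries alone gave 2 falls among the regulators, DESeq2 and the cortical libraries alone 4 among the surface genes, DESeq2 1 among the satellite glia genes, and these 3 settings 1, 1 and 2 among the myelin genes, in the order DESeq2, voom and cortical libraries. Foxd3, a regulator of neural crest, had 1.92, 4.47 and 3.69 CPM against 2 counts in all GFP-negative libraries, and the CPM ratio was 134 (95% counting interval 36.6 to 1112). L1cam, an adhesion molecule of axons and Schwann cells, had 10.4, 12.6 and 9.14 CPM against 1 count, and its ratio was 853 (interval 153 to 33749.9). Erbb3, the receptor through which neuregulin keeps Schwann cell precursors alive, stood at 20.6, 6.31 and 9.91 CPM against 0.933, 1.21 and 0.788 CPM (log2 3.64, SE 0.47, edgeR adjusted p = 0.000916). Entpd2, an enzyme of satellite and non-myelinating glia that degrades ATP, stood at 21.6, 19.2 and 20.9 CPM against 0, 0.11 and 0.158 CPM (log2 7.78, SE 0.88, edgeR adjusted p = 0.000467), and voom gave an adjusted p of 0.0533. These 4 genes were present in all 3 GFP-positive libraries. Mbp, a myelin protein gene, stood at 19.8, 49.7 and 70 CPM against 1.46, 5.65 and 7.6 CPM (log2 3.25, SE 0.63, edgeR adjusted p = 0.00697). Among members that fell, Etv5, a transcription factor gene that answers to receptor kinases, stood at 13.4, 13.2 and 18.2 CPM against 61, 54.9 and 62.5 CPM (log2 -1.99, SE 0.32, edgeR adjusted p = 0.00295). Itga4, an integrin gene of crest cells and leukocytes, stood at 3.83, 0.816 and 0.45 CPM against 13.3, 14.6 and 24.3 CPM (log2 -3.35, SE 0.65, edgeR adjusted p = 0.00728).

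Ion channel genes changed in both directions. Scn7a, a sodium channel gene of non-myelinating glia, stood at 69.6, 93.6 and 116 CPM against 0, 0.0734 and 0.0788 CPM (log2 10.71, SE 1.17, edgeR adjusted p = 0.000416). Kcna1, a potassium channel gene, had 6.37, 6.49 and 6.4 CPM against 2 counts in all, and the CPM ratio was 255 (95% counting interval 70.1 to 2111). Among channels that fell, Kcnn2, a calcium-gated potassium channel gene, stood at 146, 154 and 161 CPM against 304, 303 and 270.1 CPM (log2 -0.93, SE 0.18, edgeR adjusted p = 0.00783). Cacna1h, a T-type calcium channel gene, stood at 25.6, 27.4 and 22.4 CPM against 68.7, 69.1 and 46.1 CPM (log2 -1.29, SE 0.27, edgeR adjusted p = 0.0114). Kcnn2 was not called with the libraries of about 3.5 months alone (adjusted p = 0.0518). In all 6 of 46 channel genes rose and 7 fell, with a median of -0.01. There were 4 falls without GFP-positive library 1 or any 1 GFP-negative library, and 3 without GFP-positive library 3. With the libraries of about 3.5 months alone 2 rose and 2 fell.

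Mural genes, those of pericytes and smooth muscle, rose in 12 of 24 cases with a median of 4.08. There were 7 calls without GFP-negative library 3 and 5 with the libraries of about 3.5 months alone. Pdgfrb, a defining receptor gene of pericytes, stood at 6.9, 9.28 and 12.9 CPM against 0, 0.734 and 0.0788 CPM (log2 5.13, SE 0.98, edgeR adjusted p = 0.0067). Mcam, an adhesion molecule of pericytes and endothelium, stood at 19, 21.4 and 26.4 CPM against 0.896, 2.02 and 3.11 CPM (log2 3.47, SE 0.63, edgeR adjusted p = 0.00519), and voom gave an adjusted p of 0.0631. Acta2, the actin gene of smooth muscle and chosen after its values were seen, varied from 0.891 to 85.4 CPM within the GFP-positive libraries. Its range overlapped that of the GFP-negative libraries, where it stood at 0.971, 0.11 and 0.236 CPM. None of 20 endothelial genes was called by edgeR, with 3 at an unadjusted p below 0.05, 1 called by DESeq2, 1 with the cortical libraries alone, 0 by voom and 1 without GFP-positive library 1. Emcn, which marks sinusoids and veins, stood at 19, 60.4 and 54.5 CPM against 13.1, 32.9 and 21.6 CPM. Plpp3, a lipid phosphatase gene, stood at 102, 147 and 119 CPM against 68.2, 88.1 and 60.2 CPM. Sums over the endothelial list were 253, 592 and 386 CPM in GFP-positive and 235, 440 and 215 CPM in GFP-negative libraries, so that the ranges overlapped.

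**Figure D4:**
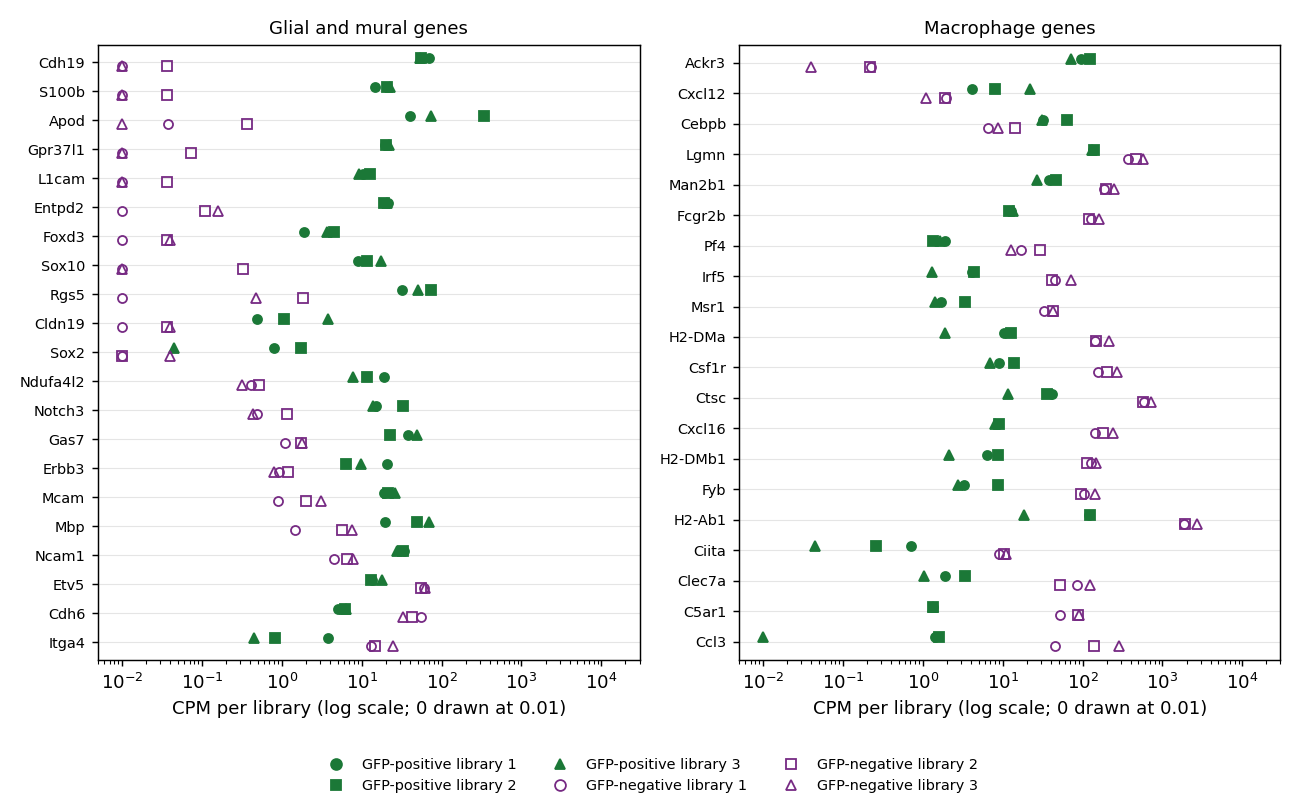
CPM of each library (log axis, 0 drawn at 0.01) for named genes of the glial and mural lists (left) and of the macrophage, MHC class II, chemokine and lysosome lists (right), with filled symbols for GFP-positive and open symbols for GFP-negative libraries. Most glial genes drawn, named by smallest p, sit near 0 in GFP-negative libraries, where the sums over the glial lists do not. The macrophage genes drawn stay above 0 in most GFP-positive libraries, with Csf1r between 6.94 and 13.8 CPM there.

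Macrophage genes fell nearly as a whole. Of 31 macrophage regulators 30 fell, with a median of -4.40, and of 33 phagocytic, complement and Fc receptors 24 fell, with a median of -3.74. Csf1r, the receptor for the macrophage growth factors, stood at 9, 13.8 and 6.94 CPM against 157, 203 and 268 CPM. Ptprc, which encodes the leukocyte antigen CD45, stood at 11, 8.12 and 0.315 CPM against 115, 136 and 173 CPM (log2 -4.44, SE 0.80, edgeR adjusted p = 0.00493). Fcgr2b, an inhibitory Fc receptor gene, stood at 12.6, 11.9 and 13.3 CPM against 126, 119 and 160.3 CPM (log2 -3.42, SE 0.25, edgeR adjusted p = 6.64e-05). C5ar1, the receptor for the complement fragment C5a, stood at 1.34, 1.33 and 1.35 CPM against 51.7, 88.1 and 89.1 CPM (log2 -5.83, SE 0.46, edgeR adjusted p = 0.000102). The GFP-positive libraries had similar levels of these last 2 genes, whereas Ptprc was lowest in library 3. The regulator that rose was Cebpb, a transcription factor gene that steroid and fat cells also express, at 32.2, 64.3 and 30.6 CPM against 6.5, 14.4 and 8.74 CPM (log2 2.10, SE 0.43, edgeR adjusted p = 0.0091), and it was not called with the libraries of about 3.5 months alone (adjusted p = 0.0545).

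MHC class II genes, which present antigen to T cells, fell in 17 of 18 cases with a median of -4.48. H2-Ab1, the beta chain of a class II molecule, stood at 122, 125 and 18.2 CPM against 1868, 1922 and 2704 CPM (log2 -4.62, SE 0.63, edgeR adjusted p = 0.00125). Ciita, the master activator of these genes, stood at 0.713, 0.258 and 0.045 CPM against 8.92, 10.2 and 11.1 CPM (log2 -4.88, SE 0.68, edgeR adjusted p = 0.00136). The peptide-loading gene H2-DMb1 stood at 6.37, 8.68 and 2.12 CPM against 126, 114 and 147 CPM (log2 -4.49, SE 0.47, edgeR adjusted p = 0.000321). GFP-positive library 3, the one from younger mice, was the lowest library for each. Summed over the list, the GFP-positive libraries held 959, 940.0 and 108 CPM and the GFP-negative libraries 13005, 13175 and 18094 CPM. Whether this follows age or the share of macrophages in that library was not tested, with 1 such library in the gate.

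Of 28 chemokine and receptor genes 12 fell and 2 rose, the rises being near the 7.14% over all genes. With the libraries of about 3.5 months alone 6 fell and 1 rose, and 1 rose without GFP-positive library 3 or any 1 GFP-negative library or with voom. Cxcl16, a membrane-bound chemokine of macrophages, stood at 8.86, 9.06 and 7.97 CPM against 142, 182 and 239 CPM (log2 -4.44, SE 0.22, edgeR adjusted p = 1.26e-05). The GFP-positive values varied little and lay more than an order of magnitude below the GFP-negative ones. The 2 that rose were Ackr3 and Cxcl12, and Ackr3 encodes a scavenger receptor for the chemokine encoded by Cxcl12. Ackr3 stood at 95.1, 123 and 72.2 CPM against 0.224, 0.22 and 0.0394 CPM (log2 9.17, SE 1.17, edgeR adjusted p = 0.000882). Cxcl12 stood at 4.19, 8.07 and 21.8 CPM against 1.98, 1.87 and 1.1 CPM (log2 2.78, SE 0.68, edgeR adjusted p = 0.0226), and was not called without GFP-positive library 3 (adjusted p = 0.0749) or GFP-negative library 1, 2 or 3 (adjusted p = 0.0631, 0.0645 and 0.0874). Lysosomal genes fell in 18 of 37 cases with a median of -0.60, and DESeq2 called 1 higher. Ctsc, a cathepsin that activates serine proteases of leukocytes, stood at 40.9, 35.9 and 11.8 CPM against 586, 568 and 721 CPM (log2 -4.40, SE 0.48, edgeR adjusted p = 0.000415). Man2b1, a lysosomal mannosidase gene, stood at 37.8, 45.9 and 27 CPM against 183, 198 and 244 CPM (edgeR adjusted p = 0.000163). The part of macrophage RNA in the lysosomal falls was not tested. Of 24 interferon-stimulated genes 8 fell and 2 rose, beside 7.59% lower and 7.14% higher over all genes. The share that rose was near that over all genes. Any 1 library left out, total counts or no filter on low counts gave 1 rise and the cortical libraries alone 4, and the falls numbered 4 without GFP-positive library 1 or 3 or GFP-negative library 2, 5 without GFP-negative library 1 and 3 without GFP-negative library 3, against 2 with the libraries of about 3.5 months alone. Ifit1, an antiviral protein gene, stood at 33.8, 40.3 and 36.4 CPM against 3.96, 9.99 and 4.73 CPM (log2 2.56, SE 0.33, edgeR adjusted p = 0.000922). Irf1, an early transcription factor of the response, stood at 26.4, 14.9 and 23.8 CPM against 40.8, 50.2 and 78.7 CPM (log2 -1.38, SE 0.28, edgeR adjusted p = 0.00866).

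More matrix genes rose than fell. Of 33 collagen genes 14 rose and 2 fell, with a median of 1.96. Voom called 8 higher and 0 lower, and glmTreat 7 and 0. There were 7 rises with the libraries of about 3.5 months alone, and 1 fall there and without GFP-positive library 1 or 3 or GFP-negative library 1 or 2. Col6a1, a chain of the beaded filaments around cells, stood at 251, 274 and 239.7 CPM against 32.1, 25.8 and 28 CPM (log2 3.15, SE 0.20, edgeR adjusted p = 3.8e-05). Col5a3, a minor fibrillar chain, stood at 69.8, 42.2 and 47.2 CPM against 0, 0 and 0.236 CPM (log2 9.36, SE 0.68, edgeR adjusted p = 6.64e-05). Of 28 proteoglycan and matricellular genes 8 rose and 2 fell, with 5 falls with the cortical libraries alone. At about 3.5 months alone 4 rose and 0 fell by edgeR. Timp2, an inhibitor of matrix proteases, stood at 137, 164 and 152 CPM against 28.9, 32.2 and 36.1 CPM (log2 2.22, SE 0.21, edgeR adjusted p = 0.000201). Matn2, a matrilin of peripheral nerve and other tissue, stood at 54.5, 71.7 and 68.2 CPM against 2.73, 4.44 and 4.29 CPM (log2 4.08, SE 0.40, edgeR adjusted p = 0.000246). Tnc, which encodes tenascin-C, stood at 8.86, 7.99 and 7.84 CPM against 53.8, 41.9 and 43.7 CPM (edgeR adjusted p = 0.00768), and its call was lost with the libraries of about 3.5 months alone (adjusted p = 0.0692). Itga6, an integrin that binds laminin, stood at 91.2, 105 and 107 CPM against 380.0, 319 and 324 CPM (log2 -1.75, SE 0.23, edgeR adjusted p = 0.000935).

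Of 19 fibroblast and capsule genes 2 rose and 1 fell, a called share of 15.8% beside 14.7% over all genes, with a median of 1.48. DESeq2 called 6 higher and 2 lower, the test with no filter on low counts 4 and 2, and voom and the cortical libraries alone 2 lower. The rises numbered 1 without GFP-positive library 1 or 2, 3 without GFP-negative library 2, and 0 by edgeR without GFP-negative library 1 or 3 or with the libraries of about 3.5 months alone, and 2 genes fell with those libraries or without GFP-positive library 3. Lum, which encodes the matrix proteoglycan lumican, stood at 6.06, 3.69 and 24.9 CPM against 0, 0.661 and 0 CPM (log2 5.66, SE 1.52, edgeR adjusted p = 0.0322), and voom gave an adjusted p of 0.0879. Ly6a, which encodes the surface antigen Sca-1, stood at 89.3, 64.7 and 39.9 CPM against 20, 29.4 and 13.7 CPM (log2 1.62, SE 0.40, edgeR adjusted p = 0.0219). Both genes were higher in every GFP-positive library. The call of Lum was lost without GFP-positive library 3 (adjusted p = 0.0955), without GFP-negative library 1 or 3 (adjusted p = 0.0857 and 0.0919) and at about 3.5 months alone (adjusted p = 0.201). That of Ly6a was lost without GFP-positive library 1 or 2 (adjusted p = 0.0739 and 0.0546), without GFP-negative library 1 or 3 (adjusted p = 0.0761 and 0.081) and at about 3.5 months alone (adjusted p = 0.0545). Fbln1, a fibulin gene, was the member that fell, at 8.06, 10.4 and 7.7 CPM against 54.4, 66.6 and 62.8 CPM (log2 -2.81, SE 0.32, edgeR adjusted p = 0.000467). The defining genes Dcn, at 40.6, 12.2 and 15.4 CPM against 0.0373, 4.15 and 1.61 CPM, and Pdgfra, at 0, 0.043 and 8.51 CPM against 1.01, 2.17 and 0.748 CPM, did not pass the test.

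Genes of signalling ligands and receptors were called in several families, beside 7.14% higher and 7.59% lower over all genes. The shares that fell among the bone morphogenetic protein and TGF-beta, growth factor and axon guidance genes were near that over all genes. Bmp7, a bone morphogenetic protein gene, stood at 144, 141 and 122 CPM against 14, 16.8 and 10.6 CPM (log2 3.30, SE 0.29, edgeR adjusted p = 0.000163). Acvr1, a receptor for such ligands, stood at 122, 179 and 64.2 CPM against 24.3, 33 and 26.3 CPM (log2 2.12, SE 0.34, edgeR adjusted p = 0.00274). Tgfbr1, the signalling receptor for TGF-beta, stood at 29.7, 40.7 and 40.4 CPM against 128, 189 and 230.0 CPM (log2 -2.30, SE 0.23, edgeR adjusted p = 0.000306). Of the 36 genes of this list 8 rose and 2 fell, with 1 fall without GFP-positive library 1 or 3 or GFP-negative library 2 or 3, and with the libraries of about 3.5 months alone 5 rose and 1 fell. Wnt ligands went in opposite directions. Wnt5a stood at 87.4, 95.6 and 89.4 CPM against 16.7, 22.3 and 17.7 CPM (log2 2.26, SE 0.23, edgeR adjusted p = 0.000313). Wnt4, which is expressed in the zona glomerulosa, stood at 65.5, 116 and 44 CPM against 283, 283 and 192 CPM (log2 -1.74, SE 0.35, edgeR adjusted p = 0.00855). Nkd1 and Lef1, targets of the beta-catenin branch, stood at 35.2, 31.1 and 25.8 against 107, 154 and 97.9 CPM and at 9.26, 13.2 and 11 against 42, 48.5 and 24.7 CPM, and both fell (edgeR adjusted p = 0.000797 and 0.00191). Of 36 Wnt genes 7 rose and 6 fell, with 4 rises without GFP-positive library 2 or GFP-negative library 1 or 2, 3 without GFP-positive library 3 or GFP-negative library 3, and 2 with the libraries of about 3.5 months alone. Vegfd, a lymphatic growth factor gene, stood at 70.7, 51.2 and 62.7 CPM against 3.32, 4.15 and 1.54 CPM (log2 4.35, SE 0.45, edgeR adjusted p = 0.000315). Il34, a ligand of the Csf1r receptor, stood at 14, 9.54 and 19.1 CPM against 0.411, 0.587 and 0.669 CPM (log2 4.67, SE 0.60, edgeR adjusted p = 0.000922), opposite to Csf1r itself. Gfra2, a receptor for the nerve factor neurturin, stood at 6.81, 4.77 and 6.98 CPM against 0, 0.11 and 0.0394 CPM (log2 6.80, SE 1.11, edgeR adjusted p = 0.00302), and voom gave an adjusted p of 0.056. Of 47 growth factor and receptor genes 10 rose and 4 fell, and by edgeR 0 fell with the libraries of about 3.5 months alone. Among 48 axon guidance genes 7 rose and 4 fell, and DESeq2 called 11 higher and 7 lower. There were 3 rises without GFP-negative library 3 and, with the libraries of about 3.5 months alone, 2 rises and 2 falls. Sema5b stood at 55.9, 61.6 and 48.9 CPM against 7.84, 15.4 and 5.71 CPM (log2 2.52, SE 0.39, edgeR adjusted p = 0.0023). Sema4d, a semaphorin of leukocytes, stood at 3.07, 3.82 and 4.5 CPM against 19.8, 22.9 and 31.1 CPM (log2 -2.69, SE 0.24, edgeR adjusted p = 0.000163).

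Immediate early genes changed in both directions. Fosl2, a FOS-related member, stood at 303, 344 and 368 CPM against 18.1, 39.8 and 32.6 CPM (log2 3.49, SE 0.32, edgeR adjusted p = 0.000172). Jun stood at 295, 319 and 333 CPM against 122, 126 and 146 CPM (log2 1.26, SE 0.19, edgeR adjusted p = 0.00211). Zfp36, which destabilises messenger RNA of cytokines, stood at 197, 142 and 144 CPM against 534, 576 and 639 CPM (log2 -1.86, SE 0.24, edgeR adjusted p = 0.000915). Atf3, a stress-induced factor, stood at 46.4, 16.6 and 35 CPM against 135, 181 and 222 CPM (log2 -2.46, SE 0.38, edgeR adjusted p = 0.00244). Klf6, a zinc finger factor, stood at 67.3, 88.4 and 86.3 CPM against 206, 213 and 243 CPM (log2 -1.45, SE 0.23, edgeR adjusted p = 0.00285). Of 27 such genes 3 rose and 10 fell, with 6 falls in the libraries of about 3.5 months alone. Cell cycle and replication genes fell in 15 of 33 cases with a median of -1.59, and in 8 without GFP-positive library 2 or 3, 7 without GFP-negative library 1, 6 without GFP-negative library 2 and 8 with the libraries of about 3.5 months alone. Mcm6, a subunit of the replicative helicase, stood at 35.4, 19.2 and 22.7 CPM against 134, 100.3 and 107 CPM (log2 -2.14, SE 0.31, edgeR adjusted p = 0.00168). The cyclin gene Ccnd2 stood at 501, 712 and 658 CPM against 1201, 1170.3 and 1039 CPM (log2 -0.87, SE 0.18, edgeR adjusted p = 0.0113). Ccnd2 was not called with the libraries of about 3.5 months alone (adjusted p = 0.0606). With glmTreat 2 of the cell cycle and replication genes fell. Nes, used as a progenitor marker, was higher in the gate where every call among cell cycle and replication genes was a fall. The part of the cell mixture in these falls was not tested.

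Imprinted growth genes fell in 4 of 24 cases and rose in 2, the rises being near the 7.14% over all genes. There was 1 rise with total counts, without GFP-positive library 1 or any 1 GFP-negative library, or with the libraries of about 3.5 months alone. Ndn, which encodes the growth suppressor necdin, stood at 218, 225 and 209 CPM against 958, 866 and 905 CPM (log2 -2.06, SE 0.23, edgeR adjusted p = 0.000461). Mest, a hydrolase gene of growing tissue, stood at 34.3, 60.2 and 28.6 CPM against 329, 380.2 and 303 CPM (log2 -3.04, SE 0.49, edgeR adjusted p = 0.00281). Peg10, a gene of retroviral origin, stood at 18.8, 22.2 and 25 CPM against 100.5, 83.3 and 72.7 CPM (log2 -1.96, SE 0.33, edgeR adjusted p = 0.00339). Rian, a noncoding RNA of another imprinted cluster, stood at 31.2, 40.6 and 32.5 CPM against 73.8, 68.1 and 64.8 CPM (log2 -0.99, SE 0.17, edgeR adjusted p = 0.00379). Nnat, a small membrane protein gene, was 1 of the 2 that rose, at 18, 9.96 and 4.64 CPM against 0.859, 0.991 and 0.236 CPM (log2 3.94, SE 0.58, edgeR adjusted p = 0.00183). None of these 5 genes overlapped between the gates.

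Genes of cells that the dissection or the blood could have brought in were looked at in each library. Pnmt, which defines adrenaline cells of the medulla, had 0 counts in the 6 libraries, and Th, Chga and Dbh were at 0 in GFP-positive library 2. Dbh stood at 17.7, 0 and 7.97 CPM in the GFP-positive libraries. The 18 chromaffin genes summed to 187, 23.9 and 21.6 CPM in GFP-positive and 6.79, 3.82 and 1.62 CPM in GFP-negative libraries, so that library 1 stood apart. Of them 5 were called, against 1 without GFP-positive library 1 or any 1 GFP-negative library, 10 without GFP-positive library 3, 9 with no filter on low counts, 8 with DESeq2, 1 with the cortical libraries alone and 0 with voom. The hemoglobin genes Hba-a1 and Hbb-bs stood at 198 and 312 CPM in GFP-positive library 1 and at most 0.367 CPM in the other 5 libraries. Without that library 2401 genes were called. Cd79b, a B cell gene, had 0 counts in GFP-positive libraries against 2.46, 1.76 and 2.8 CPM, and Cpa3, a mast cell protease gene, had 1 count against 7.43, 9.25 and 4.57 CPM. Adipocyte genes were mixed, with Plin1 at 25.7, 12.3 and 10.2 CPM against 38.8, 35.2 and 37.8 CPM (log2 -1.21, SE 0.34, edgeR adjusted p = 0.0371) and Fabp4 at 27.8, 183 and 41.5 CPM against 16.7, 52.5 and 11.5 CPM (edgeR adjusted p = 0.17). The fall of Plin1 was lost without GFP-positive library 2 or 3 (adjusted p = 0.113 and 0.0957), without GFP-negative library 1, 2 or 3 (adjusted p = 0.0906, 0.0767 and 0.0942) and with the libraries of about 3.5 months alone (adjusted p = 0.202).

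**Figure D5:**
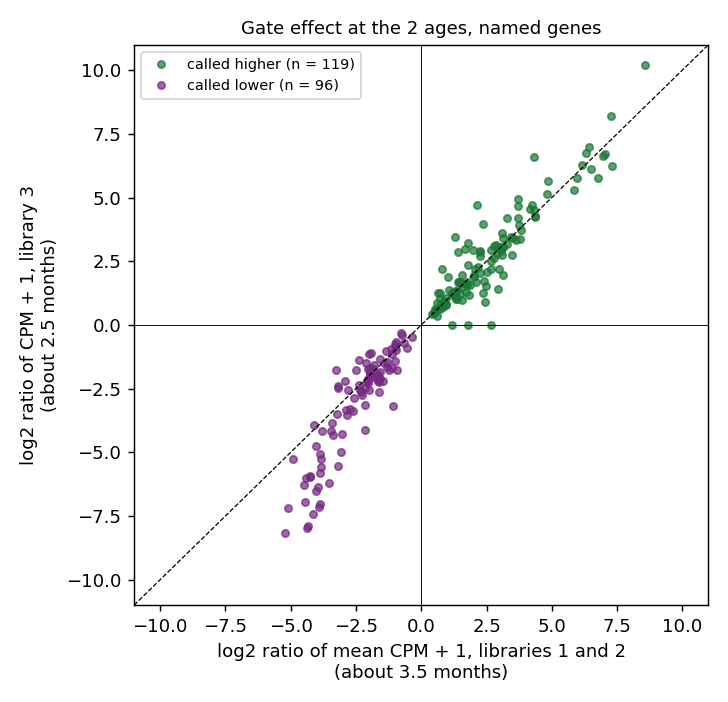
Log2 ratio of GFP-positive to GFP-negative CPM, each plus 1, in libraries 1 and 2 (about 3.5 months, x axis) and in library 3 (about 2.5 months, y axis) for the 119 named genes called higher and the 96 called lower, with the dashed line where both ages are equal. All points lie in the lower left or upper right quadrant, since 0 of these genes changed sign between the ages. The genes were called from these same libraries, so that the shared sign is no separate check.

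The effect of the gate at the 2 ages was compared without a test, since 1 library a gate is from younger mice. Abcb1b gave a log2 ratio of 6.17 at about 3.5 months and of 6.27 at about 2.5 months, and Cyp11b1 gave 2.00 and 1.90. Csf1r gave -3.87 and -5.08, the larger size being in the younger pair. The authors' deposited table of the same comparison called 925 of the genes tested here. All but 2 of them were also called here, in the same direction, which makes 99.8% of theirs and 30.0% of the calls here. Both sets of calls came from the same libraries, so that this is no separate check. The authors' table gave Star a log2 fold change of 1.64 and an adjusted p of 0.586, where edgeR's test here gave 0.005. The 2 tests may thus differ in what they ask, and the shares may compare unlike calls. With glmTreat against an absolute log2 change of 1, 979 genes were called here. Background for that table was 4.44% of genes called.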

How the data were processed

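RNA of sorted cells was sequenced in 11 libraries, 6 of them cortical and used here. The authors deposited a table of raw counts, whole reads per gene. The authors also deposited a table of comparisons with log2 fold changes, p-values and adjusted p-values, and GC content in percent, per the file headers. Tools named in the submitters' processing notes, without roles, are featureCounts 1.6.0, GSNAP, bcl2fastq 2.19.1, DESeq2 1.18.1 and DESeq, with mm10 as build. Their 17 columns of normalized signal per library were not used. The kit marks no strand.

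Spike-ins, 92 sequences with 10 counts in all, were left out. All 11 libraries entered 1 edgeR 4.0.16 fit (R 4.3.3, limma 3.58.1) with filterByExpr by group and TMM, a mean for each tissue and gate, and Benjamini-Hochberg adjustment over 20893 genes at 0.05. SE was taken as the size of the change over the root of F. A floor of 3 counts, used for a group at 0, is 0.114 to 0.135 CPM in a cortical library. The fit was tested on simulated data. No 2 libraries of a gate agreed within sampling noise (27.0 to 54.7 chi-square units per degree of freedom).

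Alternatives were RLE scaling, total counts, no filter, DESeq2 1.42.0, voom, glmTreat, cortical libraries alone, a replicate block, 1 age, and each library left out. The members and the 42 gene lists were chosen with earlier results of these data known. Named genes are Nes, the 12 largest called changes in each direction at 100 CPM or more, the 10 most abundant genes of each gate, up to 4 called members of smallest p in each direction from each list, and all members of lists of 4 or fewer. Where a list had fewer than 2 calls, its 2 most abundant tested members were named. The defining markers were fixed too. Some genes that the rule names are not reported here. A part of the rule on near-identical proteins was not used here. Promoters are those of RefSeq (GRCm38.p6).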

Additional observations from a re-analysis of the deposited data

Results flagged for a closer look

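Cyp17a1, which makes androgens and is nearly silent in the adult mouse adrenal, had ratios of opposite sign at the 2 ages. It stood at 16.7, 8.2 and 0.18 CPM against 0.448, 0 and 0.315 CPM. At about 3.5 months the log2 ratio of GFP-positive to GFP-negative CPM, each plus 1, was above 0 in both GFP-positive libraries, and at about 2.5 months it was -0.16. Both younger values, 0.18 and 0.315 CPM, lie near the floor of 3 counts, 0.114 to 0.135 CPM in a cortical library. The difference between the ages was not tested, with 1 younger library a gate. The gene was not called in the comparison (edgeR adjusted p = 0.115).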

How the results depend on the processing

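Of the 3 counts of genes called, none moved by over 1.5 times with RLE scaling, total counts, no filter on low counts, DESeq2, voom or cortical libraries alone. DESeq2 called 4558 genes and the 6 cortical libraries alone 3909 of 17231 tested. Tested against an absolute log2 change of 1 with glmTreat, 979 genes were called, 432 higher and 547 lower. With the libraries of about 3.5 months alone, which leaves 2 libraries a gate, 1363 were called, 674 higher and 689 lower. Leaving out 1 library gave 1950 to 2401 calls, 927 to 1114 higher and 1023 to 1297 lower. Nes stayed called throughout, with log2 changes of 2.60 to 2.94. Of 227 other named genes, 195 to 209 stayed on their side of the threshold when 1 library was left out, 167 with the libraries of about 3.5 months alone, 146 with glmTreat and 196 with voom. No called gene among them reversed. Akr1c18 and Alas2, which no setting named here called, changed sign, Akr1c18 to -0.19 with the libraries of about 3.5 months alone and between -0.32 and 0.63 when 1 library was left out, and Alas2 between -1.31 and 1.91 when 1 library was left out. A gene with 0 counts in a cortical library could stand at up to 0.114 to 0.135 CPM there, by counting error alone.

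Same-numbered libraries of the 2 gates deviated together only weakly, with correlations over genes of 0.059, 0.071 and 0.034. Each GFP-positive library correlated best with its own number, a hint from the data and not from the design. With the replicate block 2688 genes were called, 1317 higher and 1371 lower, Nes changed by 2.81 and Alas2 by -0.035.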
